A study of Mus musculus with 8 samples.

Results

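Collagens are the main structural proteins of the extracellular matrix, and their genes were followed here in adult mouse testis. All genes whose symbol is Col, a type number, the letter a and a chain number were taken, which gave 44 of the 56748 gene identifiers counted. They were divided into 11 fibrillar chains, 6 chains of the basement membrane collagen IV and 27 other collagens. Of the 8 RNA sequencing libraries, 4 carry the label Ak9 knockout and 4 the label wild type. The product of Ak9 belongs to the adenylate kinases, enzymes that interconvert adenine nucleotides. The sources used here do not give the strain, the exact age or the construction of the knockout allele, nor do they say that replicates were different animals. The p-values therefore set the difference between groups only against the variation among these libraries, and part of that variation may be technical.

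Each collagen is a trimer of alpha chains wound into a triple helix. Fibrillar collagens pack side by side into the tension-bearing fibrils of connective tissue, collagen IV forms the sheet-like network of basement membranes, and the remaining types coat fibrils, link them to other structures, span the plasma membrane or form filaments and networks of their own. In the testis, collagens surround the seminiferous tubules in the tubular wall, where peritubular myoid cells and Sertoli cells lay down the basement membrane on which the germ cells rest, and they fill the interstitium and the capsule.

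Promoter sequences, from RefSeq on GRCm38.p6, are shown for Col3a1, a fibril chain whose RNA varied from library to library together with that of other matrix collagens, and for Col8a1 and Col23a1, the pair with the smallest p-values of the family. Each is the run of 250 bases that ends just before the annotated start of transcription, written 5′ to 3′ on the gene's own strand. Capitals mark TATAAA in Col3a1 and the GC box, GGGCGG or its complement CCGCCC, in the others.
Col3a1, chr1:45311288-45311537, plus strand: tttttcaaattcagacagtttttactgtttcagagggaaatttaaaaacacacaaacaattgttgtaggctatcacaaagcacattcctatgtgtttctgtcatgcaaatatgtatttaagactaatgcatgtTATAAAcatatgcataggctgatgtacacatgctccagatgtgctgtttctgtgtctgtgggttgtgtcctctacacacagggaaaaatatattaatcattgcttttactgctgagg
Col8a1, chr16:57754738-57754987, minus strand: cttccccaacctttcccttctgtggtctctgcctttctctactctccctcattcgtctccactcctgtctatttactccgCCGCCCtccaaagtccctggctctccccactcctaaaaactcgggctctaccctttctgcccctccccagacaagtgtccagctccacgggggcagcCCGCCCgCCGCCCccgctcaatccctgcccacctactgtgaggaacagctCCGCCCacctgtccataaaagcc
Col23a1, chr11:51289670-51289919, plus strand: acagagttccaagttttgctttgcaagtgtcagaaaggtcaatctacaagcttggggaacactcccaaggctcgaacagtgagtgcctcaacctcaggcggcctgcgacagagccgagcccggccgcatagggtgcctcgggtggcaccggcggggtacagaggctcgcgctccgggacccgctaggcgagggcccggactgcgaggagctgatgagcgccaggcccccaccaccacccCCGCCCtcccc

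The Col3a1 window held 1 TATAAA and had a GC content of 35.2%, the Col8a1 window held 4 GC boxes at 60.8% GC, and the Col23a1 window held 1 GC box. Windows were matched for 35 of the 44 collagen genes, 38 windows in all because some genes have more than a single start. Searched on both strands, the GC box was in 22 of the 38 windows (57.9%), against 32.7% of 32851 windows of the same length over all genes. CCAAT was in 13 (34.2%, against 33.8%) and TATAAA in 5 (13.2%, against 12.4%). None of the 3 motifs contains another, and the matches describe the letters of the windows only. The collagen IV genes lie in head-to-head pairs. On chromosome 8 the first bases of Col4a1 and Col4a2 overlap by 22 bases, at chr8:11312805-11312826 in the same build. This run is shown because the RNA of these 2 genes is compared as a pair later in the text. It lies outside the searched windows and motifs are not marked in it, although it contains GGGCGG.
Col4a1 and Col4a2 overlap, strand of Col4a2: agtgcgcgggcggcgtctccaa

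On chromosome X the starts of Col4a6 and Col4a5 are 1342 bases apart.

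Library totals ran from 18062780 to 24415587 counts. Ak9, the targeted gene, did not separate the groups. Labelled knockouts 1, 3 and 4 were below every wild type, and labelled knockout 2 was within the wild-type range of Ak9. Its level was 69.3, 116, 101 and 40.6 CPM (counts put on a common scale with TMM factors) in labelled knockouts 1 to 4, against 108, 115, 122 and 107 CPM in wild types 1 to 4 (log2 fold change -0.47, SE 0.25, edgeR adjusted p = 1.00). A gene count does not show whether a shortened transcript is still made, so the libraries are called labelled knockout throughout and every direction rests on the label. The libraries labelled knockout also differed more among themselves. Over all tested genes, the median SD on the log2 scale was 0.30 among labelled knockouts and 0.13 among wild types. Every marker on the lists for spermatogonia, spermatocytes, spermatids, Sertoli and Leydig cells had counts in every library. The summed level of 12 epididymis markers was 267 and 45.4 CPM in labelled knockouts 3 and 4, against 5.63 and 5.79 CPM in labelled knockouts 1 and 2 and 7.08 to 9.51 CPM in wild types. Crisp1 (185 and 24.4 CPM), Spink8 (50.6 and 9.21 CPM) and Adam7 (26.2 and 4.20 CPM) carried these 2 sums. The remaining 9 markers together held 4.49 and 7.52 CPM, of which Rnase10 was 3.11 and 7.35 CPM. In labelled knockout 3, Defb2 (0.691 CPM) and Lcn5 (0.444 CPM) were above every wild type, and Rnase10 was below every wild type. Of the 12 markers, 10 were at 0 in at least 1 library. The part of this RNA in the collagen values was not tested.

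No collagen gene differed between the groups at an adjusted p of 0.05. Of the 44 genes, 42 had enough counts to be tested among 21805 genes, and edgeR's quasi-likelihood test called 0 of the 42 higher and 0 lower. Over all tested genes it called 0.0183% higher (4 genes) and 0% lower. DESeq2 also called 0 collagen genes, against 0.211% of all genes, and limma-voom called 0. Without any 1 library, labelled knockouts 3 and 4 included, edgeR called 0 collagen genes as well. The adjusted p was 1.00 for each of the 42 genes in the edgeR fit, and it is not repeated below. At an unadjusted p of 0.05, 1 of the 42 collagen genes passed (2.38%), against 3.04% of all genes. The values of labelled knockout and wild type did not overlap for the same single gene, Col8a1 (2.38%, against 2.30% of all genes). Both shares lay near the background. The fitted log2 fold change, labelled knockout over wild type, was above 0 for 23 collagen genes and below 0 for 19, with a median of 0.06. Over all genes 52.9% were above 0 and the median was 0.01. These are bulk samples, in which fewer cells of a type and less RNA per cell cannot be told apart.

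The 2 genes below the count filter were Col9a2, a chain of the cartilage collagen IX, and Col10a1, the network collagen of growth-plate cartilage. Col9a2 had 3, 2, 3 and 2 raw counts in labelled knockouts 1 to 4, against 5, 1, 2 and 4 in wild types. Col10a1 had 2, 2, 2 and 0 counts in labelled knockouts, against 0, 1, 1 and 0 in wild types. Taking 3 counts as the 95% limit that a count of 0 allows, the Col10a1 level could still be up to 0.158 CPM in labelled knockout 4, and up to 0.160 and 0.150 CPM in wild types 1 and 4. Both genes lie at the detection limit at this depth in both groups, and no fold is given.

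The most abundant collagen RNAs per length in wild-type testis were fibril-associated chains, ahead of the chains of the main fibrils and of the basement membrane. Levels between genes are compared per kilobase of annotated exon, with the exons of all transcripts of a gene merged. The order of genes therefore also depends on the annotation, which the spread between libraries does not cover. Col22a1, a chain found at tissue junctions such as that of muscle and tendon, stood first at 29.9 ± 2.44 CPM per kilobase (SD, n = 4 wild types). Col16a1, a fibril-associated chain found near basement membranes, was next at 22.1 ± 1.93, and Col20a1, a little-studied member of the same group, at 10.04 ± 1.69. Col2a1, the fibril collagen of cartilage, followed at 6.10 ± 0.181 CPM per kilobase. The wild-type ranges of these leading 4 genes did not overlap with those of their neighbours in the order: Col22a1 spanned 26.6 to 32.1, Col16a1 19.8 to 24.6, Col20a1 8.85 to 12.5 and Col2a1 5.90 to 6.33 CPM per kilobase. Below them lay a group of genes at like levels. Col9a3 (4.55), Col18a1 (4.49), Col6a1 (4.30), Col15a1 (4.06), Col4a2 (3.91), Col4a1 (3.70), Col1a2 (3.50), Col3a1 (3.32), Col4a4 (3.31) and Col1a1 (2.97 CPM per kilobase) came next. From Col18a1 to Col4a4, each mean was within the wild-type range of the gene before it, so the order among these genes is within their spread. The lowest tested genes were Col6a6, Col24a1, Col11a1 and Col13a1, at 0.141, 0.184, 0.191 and 0.202 CPM per kilobase.

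**Figure D1:**
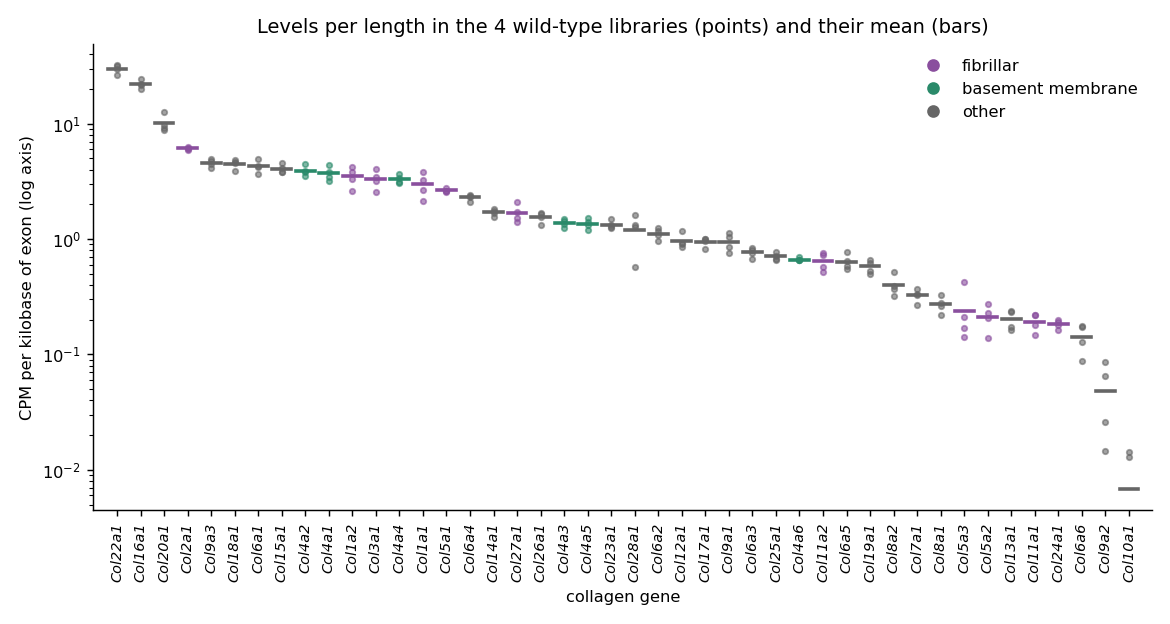
Wild-type level of each collagen gene in TMM-scaled CPM per kilobase of exon on a log axis, coloured by class, with points for the 4 wild-type libraries (values of 0 are not drawn) and a bar for their mean. Col22a1 (29.9), Col16a1 (22.1), Col20a1 (10.04) and Col2a1 (6.10 CPM per kilobase) stand above the broad middle group that starts with Col9a3 (4.55).

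By summed level without correction for length, the fibrillar chains took 210, 238, 279 and 166 CPM in labelled knockouts 1 to 4, against 190, 200, 228 and 214 CPM in wild types 1 to 4. The collagen IV chains took 109, 165, 158 and 101 CPM in labelled knockouts, against 107, 116, 131 and 113 CPM in wild types. The other collagens took 710, 807, 609 and 771 CPM in labelled knockouts, against 740, 644, 703 and 710 CPM in wild types. Labelled knockouts therefore lay on both sides of the wild types in each class. Fibrillar chains made up 26.7% of collagen RNA in labelled knockout 3 and 16.0% in labelled knockout 4, against 18.3% to 21.5% in wild types.

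Among the fibrillar chains, 0 of 11 passed the test. The log2 fold change was above 0 for 7 and below 0 for 4, with a median of 0.26. This median rested on few libraries: it was 0.05 without labelled knockout 3, 0.14 without labelled knockout 2 and 0.15 without wild type 1. Collagen I, the main fibril former of most connective tissue, is built from Col1a1 and Col1a2. Col1a2 measured 45.0, 66.8, 75.4 and 30.0 CPM in labelled knockouts 1 to 4, against 32.3, 41.3, 52.8 and 47.4 CPM in wild types 1 to 4. Labelled knockouts 2 and 3 were above every wild type and labelled knockout 4 below every wild type, so the means of 54.3 ± 20.6 and 43.5 ± 8.78 CPM (SD, n = 4 each) were less far apart than the libraries labelled knockout were from each other (log2 fold change 0.32, SE 0.25, edgeR unadjusted p = 0.232). Col1a1, given here beside its partner chain after its values were seen, had the same order, with 22.1, 26.0, 34.9 and 13.7 CPM in labelled knockouts, against 14.1, 17.6, 25.0 and 21.3 CPM in wild types.

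Collagen III, a homotrimer of Col3a1 that is woven into collagen I fibrils in elastic tissues, repeated this order. Col3a1 measured 31.9, 48.3, 54.6 and 21.5 CPM in labelled knockouts 1 to 4, against 25.2, 31.1, 40.1 and 33.8 CPM in wild types 1 to 4 (log2 fold change 0.26, SE 0.25). Labelled knockout 3 was again the highest of the 8 libraries and labelled knockout 4 the lowest. Col2a1 had another order. Its level was 57.5, 40.8, 48.3 and 58.7 CPM in labelled knockouts 1 to 4, and the wild types lay close together at 58.5, 55.9, 54.5 and 56.6 CPM. Labelled knockouts 2 and 3, high for collagens I and III, were here the lowest of all libraries (log2 fold change -0.14, SE 0.12, edgeR unadjusted p = 0.281).

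The collagen V and XI chains, which nucleate fibrils and limit their width, showed no common order. In wild types Col5a1 was near Col1a1 in level, at 2.64 and 2.97 CPM per kilobase, and the other chains were less abundant. Col5a1 was at 21.7 ± 3.33 CPM in labelled knockouts, against 22.4 ± 0.674 CPM in wild types (SD, n = 4 each). Col5a2, Col5a3, Col11a1 and Col11a2 had group means between 1.51 and 5.37 CPM and log2 fold changes of 0.27, -0.10, 0.17 and 0.28, with SEs from 0.21 to 0.49. Col11a2 had the widest range in CPM of these 4, with 9.87 CPM in labelled knockout 3 and 2.33 CPM in labelled knockout 4 against 3.55 to 5.25 CPM in wild types. The short-helix chains were the last of the class. Col24a1, a minor chain known from bone, had 3.20, 1.25, 2.07 and 1.05 CPM in labelled knockouts, against 1.44, 1.53, 1.38 and 1.25 CPM in wild types, so that labelled knockouts 1 and 3 were above the wild types, 2 at their lower edge and 4 below them (log2 fold change 0.45, SE 0.34, edgeR unadjusted p = 0.212). Col27a1, a cartilage chain, had 17.3, 17.0, 25.5 and 15.6 CPM in labelled knockouts, against 27.3, 18.4, 19.8 and 22.4 CPM in wild types. Labelled knockouts 1, 2 and 4 were below every wild type and labelled knockout 3 was within their range (log2 fold change -0.22, SE 0.18, edgeR unadjusted p = 0.247).

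Of the 6 collagen IV chains, 0 passed the test. The log2 fold change was above 0 for 5 and below 0 for Col4a6, with a class median of 0.20. It was 0.07 without labelled knockout 2, 0.10 without labelled knockout 3 and 0.32 without labelled knockout 4. The pair Col4a1 and Col4a2 encodes the network found in nearly all basement membranes. Col4a1 measured 26.4, 39.4, 39.3 and 23.3 CPM in labelled knockouts 1 to 4, against 23.7, 25.8, 32.6 and 28.5 CPM in wild types 1 to 4 (log2 fold change 0.22, SE 0.18, edgeR unadjusted p = 0.261). Col4a2 measured 25.9, 37.8, 34.8 and 22.2 CPM in labelled knockouts, against 23.3, 25.2, 29.4 and 25.7 CPM in wild types, with log2 fold change 0.22 and SE 0.17 (edgeR unadjusted p = 0.211). For both genes labelled knockouts 2 and 3 lay above all wild types, labelled knockout 4 below them and labelled knockout 1 among them.

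Col4a3, Col4a4 and Col4a5 form the second network of collagen IV, best known from the kidney glomerulus and also present around seminiferous tubules. Col4a4 had 33.5, 47.0, 45.4 and 33.2 CPM in labelled knockouts 1 to 4, against 33.2, 35.8, 38.5 and 32.7 CPM in wild types 1 to 4, with log2 fold change 0.18 and SE 0.14 (edgeR unadjusted p = 0.210, the smallest of the class). Labelled knockouts 2 and 3 were again the highest, while labelled knockout 4 was within the wild-type range. Col4a3 ranged from 10.5 to 21.4 CPM in labelled knockouts and from 12.4 to 14.9 CPM in wild types, with log2 fold change 0.17 and SE 0.22. In the GENCODE M21 annotation 563 bases of its exons (5.65%) overlap an RNA gene on the other strand, C430014B12Rik, and as the sources used here do not give the strand setting of the counting, reads of the 2 genes cannot be told apart there. Col4a5 ranged from 6.94 to 14.3 CPM in labelled knockouts and from 8.02 to 10.2 CPM in wild types (log2 fold change 0.24, SE 0.23). Col4a6, its neighbour on chromosome X, was lower and steadier, from 4.20 to 5.62 CPM in labelled knockouts and from 5.20 to 5.52 CPM in wild types (log2 fold change -0.14, SE 0.16).

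Among the other collagens, 0 of the 25 tested passed after adjustment. The log2 fold change was above 0 for 11 and below 0 for 14, with a median of -0.04, which was 0.05 without labelled knockout 1 and 0.00 without wild type 3. Col8a1, which encodes a chain of the short-chain network collagen VIII made by vascular and smooth muscle cells, was the only tested collagen gene whose groups did not overlap. It had 4.78, 3.18, 3.01 and 3.50 CPM in labelled knockouts 1 to 4, against 1.71, 2.20, 2.55 and 2.05 CPM in wild types 1 to 4. The lowest labelled knockout was above the highest wild type, and the means were 3.62 ± 0.800 and 2.13 ± 0.347 CPM (SD, n = 4 each). The log2 fold change was 0.76 (SE 0.22), with an unadjusted p of 0.00570 by edgeR, which does not pass once adjusted over all genes. DESeq2 gave it an adjusted p of 0.431, within a range of 0.107 to 1.00 over all 14 alternatives. Without any 1 library the log2 fold change was 0.59 to 0.86. Col8a2, the partner chain of collagen VIII, was at 1.22 to 2.61 CPM in labelled knockouts, against 1.44 to 2.31 CPM in wild types (log2 fold change -0.04, SE 0.29).

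**Figure D2:**
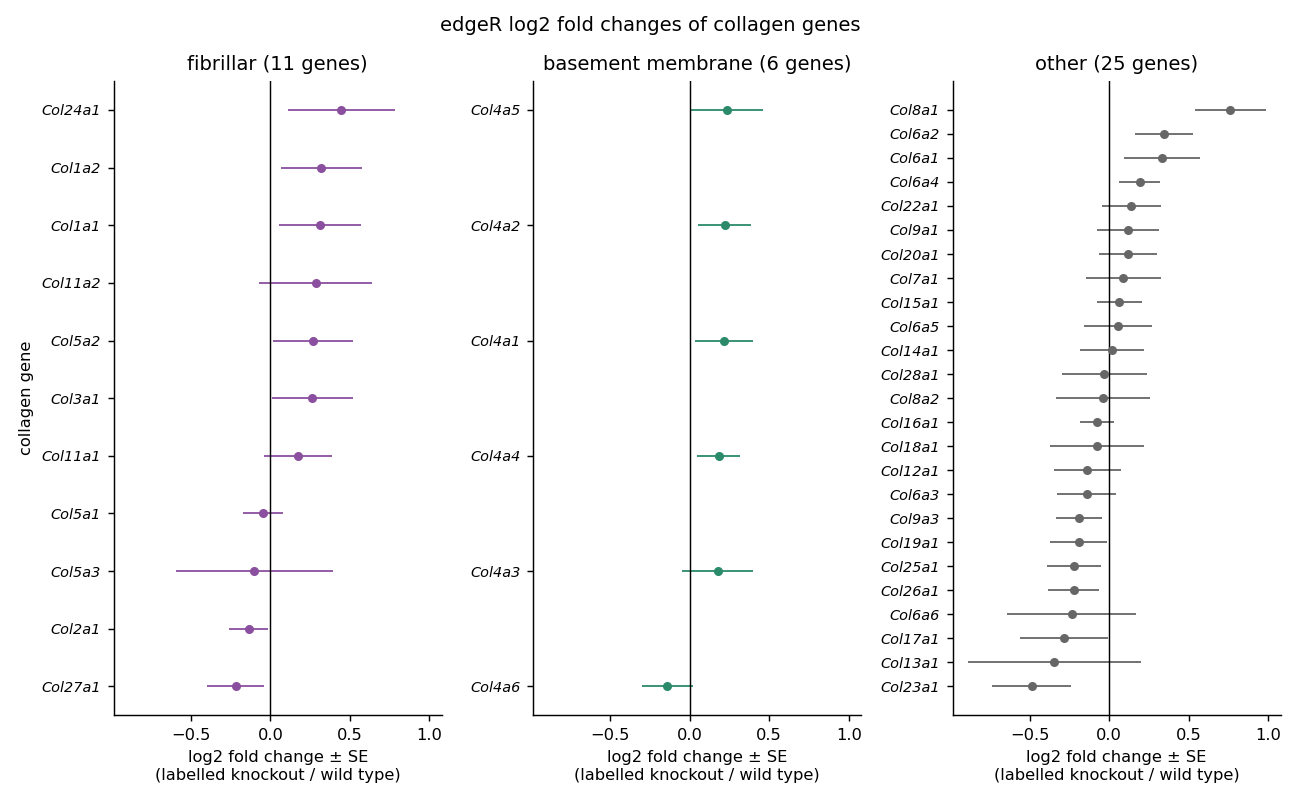
Log2 fold change of labelled knockout over wild type for the 42 tested collagen genes, with bars of ± 1 SE, grouped by class. Col8a1 (0.76, SE 0.22) has the highest value and Col23a1 (-0.49, SE 0.25) the lowest, and none passed the adjusted threshold.

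Col23a1, a transmembrane collagen that is shed from the cell surface, had the next smallest p of the other collagens. Its values were 4.28, 4.92, 3.90 and 8.86 CPM in labelled knockouts 1 to 4, against 7.11, 7.59, 7.36 and 8.60 CPM in wild types 1 to 4. Labelled knockouts 1 to 3 lay below every wild type and labelled knockout 4 above every wild type. The log2 fold change was -0.49 (SE 0.25, edgeR unadjusted p = 0.0746). Without labelled knockout 4 it was -0.81, with an edgeR adjusted p of 0.241, in a range of 0.241 to 1.00 over the 14 alternatives. Among the other transmembrane chains the log2 fold change was -0.35 (SE 0.54) for Col13a1, known from muscle attachment sites, -0.29 (SE 0.28) for Col17a1, the hemidesmosome collagen, and -0.22 (SE 0.17) for Col25a1, known from neurons. Thus all 4 transmembrane collagens had fitted values below 0 and 0 of 4 passed the test. Over all tested genes 52.9% had fitted values above 0. Each of the 4 also had a labelled knockout above every wild type. For Col17a1 it was labelled knockout 3, at 7.65 CPM against 4.97 to 6.04 CPM in wild types. For Col25a1 it was labelled knockout 2, at 10.3 CPM against 8.45 to 10.1 CPM in wild types. Col13a1 was near the detection limit in labelled knockout 4, at 0.0583 CPM, against 0.451, 1.40 and 0.987 CPM in labelled knockouts 1 to 3 and 0.750 to 1.09 CPM in wild types.

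Collagen VI forms beaded filaments around cells from the chains Col6a1, Col6a2 and Col6a3. Col6a2 had 11.0, 13.5, 14.3 and 8.28 CPM in labelled knockouts 1 to 4, against 8.02, 9.70, 10.4 and 8.95 CPM in wild types 1 to 4. Labelled knockouts 1 to 3 were above every wild type and labelled knockout 4 was within their range (log2 fold change 0.35, SE 0.18, edgeR unadjusted p = 0.0844). Col6a1 had 20.6, 28.5, 32.8 and 13.0 CPM in labelled knockouts, against 16.1 to 21.8 CPM in wild types, again with labelled knockouts 2 and 3 above and 4 below every wild type (log2 fold change 0.33, SE 0.24). Col6a3 stood apart from its partners, at 6.72, 10.4, 9.67 and 6.41 CPM in labelled knockouts, against 8.07 to 9.97 CPM in wild types (log2 fold change -0.14, SE 0.19). The alternative chains Col6a4, Col6a5 and Col6a6, which take the place of Col6a3, differed by 0.19 (SE 0.13), 0.06 (SE 0.22) and -0.24 (SE 0.40) on the log2 scale.

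The fibril-associated chains held the highest collagen levels of the testis and 0 of the 8 tested passed. Col22a1 measured 319, 361, 186 and 346 CPM in labelled knockouts 1 to 4, against 288, 245, 271 and 295 CPM in wild types 1 to 4. Labelled knockouts 1, 2 and 4 were above every wild type and labelled knockout 3 below every wild type (log2 fold change 0.14, SE 0.18). This order was seen for 1 of 42 collagen genes (2.38%), against 1535 of 21805 genes (7.04%). Col16a1 had the smallest SE of the family, with 123, 153, 141 and 148 CPM in labelled knockouts, against 166, 134, 150 and 147 CPM in wild types (log2 fold change -0.08, SE 0.11). Col20a1 measured 60.9, 58.8, 36.7 and 67.5 CPM in labelled knockouts, against 64.4, 45.5, 47.0 and 49.6 CPM in wild types (log2 fold change 0.12, SE 0.18). Labelled knockout 3 was thus the lowest library for both Col22a1 and Col20a1, where it was the highest for collagens I and III. The summed level of 9 spermatid markers was 17203, 13848, 7099 and 17498 CPM in labelled knockouts 1 to 4, against 11351 to 14525 CPM in wild types, so the library low for Col22a1 and Col20a1 was also low for spermatid RNA, and the part of this in their values was not tested.

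Of the remaining fibril-associated chains, Col9a1 (log2 fold change 0.12, SE 0.20) and Col9a3 (-0.19, SE 0.14) belong to collagen IX, Col12a1 (-0.14, SE 0.21) and Col14a1 (0.02, SE 0.20) coat collagen I fibrils, and Col19a1 had -0.19 (SE 0.18). Exons of Col9a3 overlap those of Tcfl5, a transcription factor gene expressed in germ cells, on the other strand over 234 bases (6.07% of its exons), so the Col9a3 level may hold Tcfl5 reads, which was not tested. Col14a1 was at 18.0 CPM in labelled knockout 4, against 8.97 to 11.1 CPM in the other labelled knockouts and 10.8 to 12.8 CPM in wild types. Col15a1 and Col18a1 encode the collagens of the basement membrane zone whose ends are released as endostatin and its relative. Col18a1 had 16.6, 30.6, 52.4 and 19.6 CPM in labelled knockouts, against 34.2, 32.4, 27.4 and 32.0 CPM in wild types, so that labelled knockouts 1 and 4 were below and labelled knockout 3 above all wild types (log2 fold change -0.08, SE 0.30). Col15a1 was at 22.4 to 34.9 CPM in labelled knockouts, against 24.0 to 29.0 CPM in wild types (log2 fold change 0.06, SE 0.14). The last 3 genes were Col7a1, the anchoring fibril collagen of skin (0.09, SE 0.24), Col26a1, first described in testis and ovary (-0.22, SE 0.16), and Col28a1, known from peripheral nerve (-0.03, SE 0.27).

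**Figure D3:**
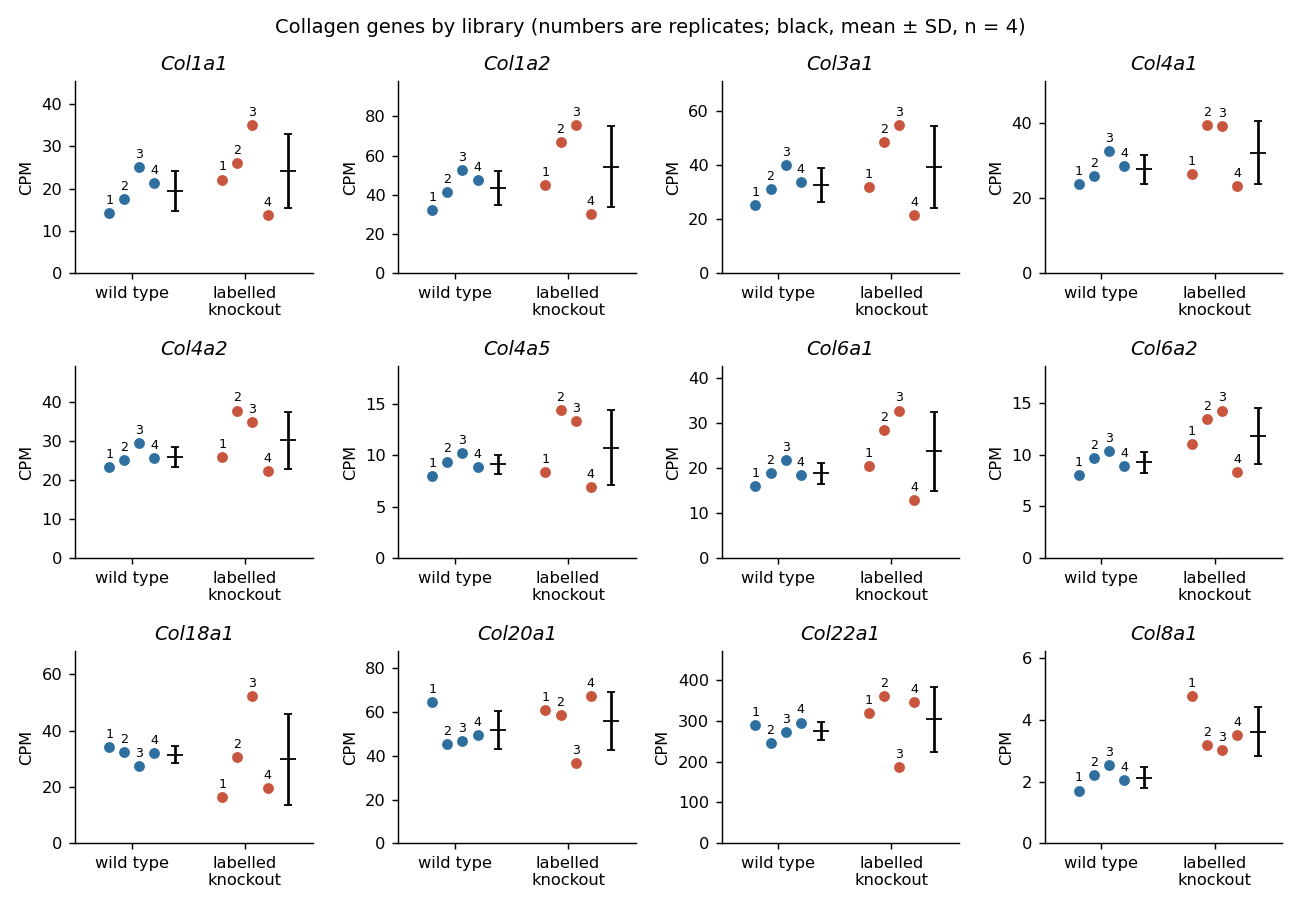
TMM-scaled CPM in each of the 8 libraries for selected collagen genes, with a numbered point for each replicate and black bars for the mean ± SD of each group (n = 4). Labelled knockouts 2 and 3 are above and labelled knockout 4 below the wild types for Col1a2, Col3a1 and Col4a1, while for Col8a1 the lowest labelled knockout (3.01 CPM) is above the highest wild type (2.55 CPM).

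Part of the fibril, basement membrane and beaded filament genes shared an order of the libraries. For 8 of the 42 genes (19.0%), labelled knockouts 2 and 3 were both above every wild type and labelled knockout 4 was below every wild type, against 693 of 21805 genes (3.18%). They were Col1a1, Col1a2, Col3a1, Col4a1, Col4a2, Col4a3, Col4a5 and Col6a1. In 7 of these 8 genes wild type 3 was also the highest and wild type 1 the lowest of the wild types. This order was described after the values were seen, so it carries no test. Labelled knockout 3 was above every wild type for 21 of the 42 collagen genes (50.0%), among them 7 of 11 fibrillar and 6 of 6 collagen IV chains, against 33.5% of all genes. Labelled knockout 2 was above every wild type for 19 (45.2%), with 5 of 6 collagen IV chains, against 26.3%. Labelled knockout 4 was below every wild type for 22 (52.4%), with 8 of 11 fibrillar and 5 of 6 collagen IV chains, against 33.9%.

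**Figure D4:**
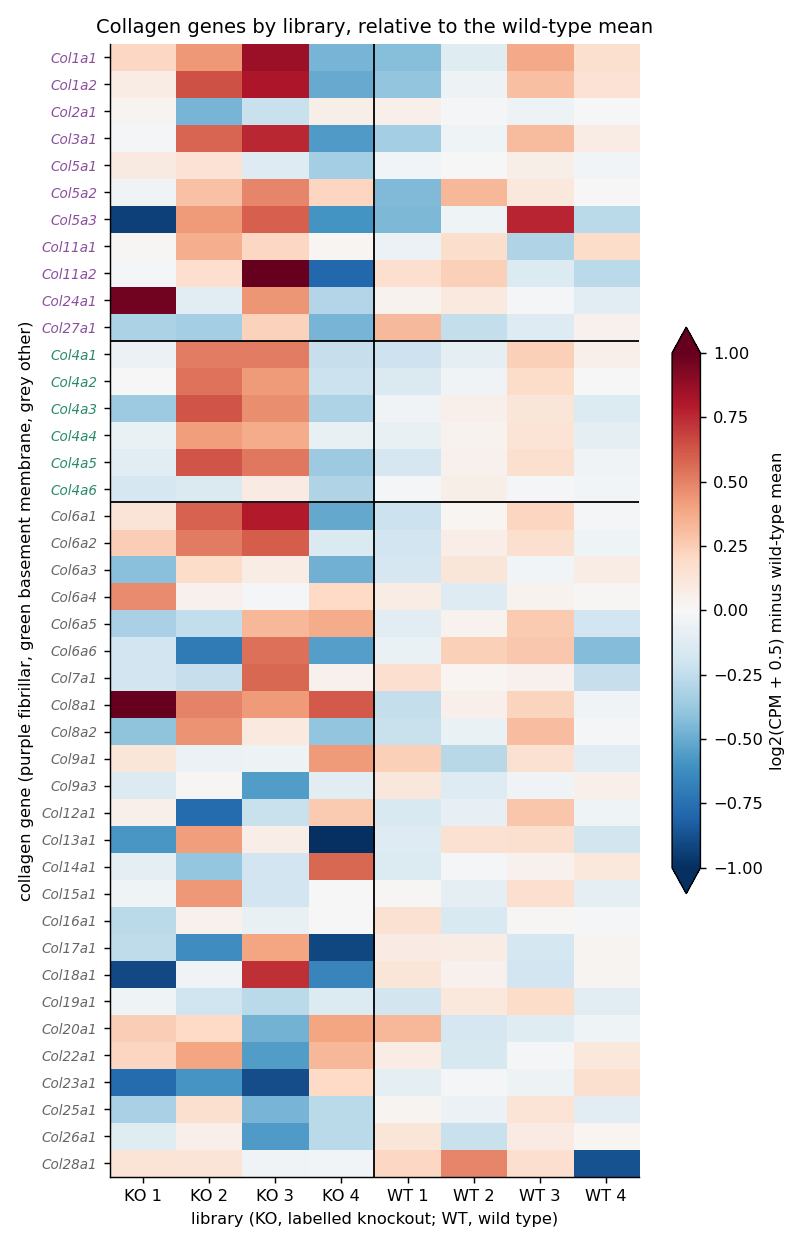
Deviation of each tested collagen gene in each library from the wild-type mean, in log2(CPM + 0.5), with genes grouped by class in rows and the 8 libraries in columns. Fibrillar and collagen IV chains tend to be high in labelled knockouts 2 and 3 and low in labelled knockout 4, with class medians of 0.29, 0.49 and -0.46 for fibrillar and 0.53, 0.44 and -0.27 for collagen IV chains.

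The median deviation from the wild-type mean, on the scale of log2(CPM + 0.5), was 0.01, 0.29, 0.49 and -0.46 for fibrillar chains in labelled knockouts 1 to 4 and -0.09, 0.53, 0.44 and -0.27 for collagen IV chains. For the other collagens it was -0.12, 0.05, -0.03 and -0.02. The same shift was therefore not seen in the medians of the other collagens. The SD on the log2 scale was larger among labelled knockouts than among wild types for 37 of the 42 collagen genes (88.1%), against 84.9% of all genes. Its median was 0.37 among labelled knockouts and 0.16 among wild types.

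Markers of the cells that make testis matrix also varied between the libraries, and 0 of them passed the test. Each list was scored in every library as the mean log2 deviation of its tested markers from their wild-type level. For 9 peritubular myoid and smooth muscle markers it was 0.17, 0.41, 0.20 and 0.00 in labelled knockouts 1 to 4, against -0.06 to 0.13 in wild types. All 9 had fitted values above 0. Their summed level was 364 to 449 CPM in labelled knockouts, against 344 to 383 CPM in wild types. From 31.6% to 62.2% of that sum was Actg2, the smooth muscle gamma actin, which had another order, with 250, 174, 115 and 259 CPM in labelled knockouts, against 170 to 213 CPM in wild types. Without Actg2 the sum was 200, 237, 249 and 157 CPM in labelled knockouts, against 159 to 199 CPM in wild types. Acta2, the smooth muscle actin of myoid cells, had 64.6, 84.6, 81.4 and 45.9 CPM in labelled knockouts, against 49.3 to 63.1 CPM in wild types. Of the 9 markers, 2 had labelled knockouts 2 and 3 above and 4 below every wild type, namely Acta2 and Myh11, and 7 did not. This order, that of the 8 collagen genes above, was seen for 693 of all 21805 tested genes (3.18%). For 12 Sertoli markers the score was -0.18, -0.00, 0.48 and -0.44, against -0.08 to 0.10 in wild types. Their sum ran from 1254 to 2348 CPM in labelled knockouts and from 1655 to 1854 CPM in wild types. Most of that Sertoli sum was Clu. Its level was 847, 1183, 1568 and 791 CPM in labelled knockouts 1 to 4, against 1137 to 1266 CPM in wild types. For 9 stromal markers, 3 of them with fitted values above 0, the score was -0.24, 0.24, -0.08 and -0.44, against -0.20 to 0.21 in wild types. Their sum was 145 to 229 CPM in labelled knockouts, against 167 to 234 CPM in wild types. The score of 8 endothelial markers, 2 of them with fitted values above 0, was -0.24, -0.10, -0.03 and -0.06, against -0.10 to 0.16 in wild types. These 8 summed to 27.8 to 31.3 CPM in labelled knockouts, against 29.4 to 33.6 CPM in wild types. For 6 mesothelium and tunica markers the score was -0.51, -0.58, 0.22 and -0.68, against -0.36 to 0.41 in wild types. Msln was at 0 in at least 1 library. The sum of the 6 was 49.2 to 96.1 CPM in labelled knockouts, against 60.0 to 72.1 CPM in wild types. Most of that sum was Wt1, which is also on the Sertoli list. Wt1 had 39.7, 49.7, 77.7 and 40.1 CPM in labelled knockouts 1 to 4, against 48.5 to 56.6 CPM in wild types. The part of these cells in the collagen values was not tested.

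Ratios between chains of 1 trimer, or between neighbours in the matrix, overlapped between the groups for all 9 pairs compared. The ratio of raw counts of 2 chains within a library needs no scaling between libraries, and the 9 were compared by a two-sided exact permutation test, whose smallest possible p is 0.0286 with 4 libraries a group. A single ratio could reach an adjusted p of 0.257 at best, and 6 of the 9 would have to be at the smallest p for any to pass, so that none passed says little. The ratio of Col1a1 to Col1a2 was 0.491, 0.388, 0.463 and 0.456 in labelled knockouts 1 to 4, against 0.436, 0.425, 0.474 and 0.450 in wild types 1 to 4 (difference in log2 ratio 0.01, exact p = 0.971, adjusted p = 0.971). The ratio of Col4a1 to Col4a2 was 1.02, 1.04, 1.13 and 1.05 in labelled knockouts, against 1.02, 1.02, 1.11 and 1.11 in wild types (difference -0.01, exact p = 0.971, adjusted p = 0.971). For these 2 pairs the ratio stayed within a narrow band while the level of Col1a1 differed by up to 2.55-fold, and that of Col4a1 by up to 1.69-fold, between libraries labelled knockout.

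The largest difference among the 9 was in the ratio of Col6a1 to Col6a3. It was 3.06, 2.73, 3.39 and 2.03 in labelled knockouts 1 to 4, against 1.99, 1.91, 2.42 and 1.92 in wild types 1 to 4 (difference in log2 ratio 0.42, exact p = 0.0571, adjusted p = 0.514). Labelled knockouts 1 to 3 were above every wild type, and labelled knockout 4 was within their range. The ratio of Col18a1 to Col15a1 was 0.664, 0.876, 2.33 and 0.768 in labelled knockouts, against 1.31, 1.34, 0.946 and 1.33 in wild types. Labelled knockout 3 lay above and the other labelled knockouts below all wild types (difference -0.27, exact p = 0.571). The ratio of Col4a5 to Col4a6 was 1.65 to 3.03 in labelled knockouts, against 1.53 to 1.95 in wild types (difference 0.32, exact p = 0.229). The remaining differences in log2 ratio were -0.06 for Col4a3 to Col4a4, -0.07 for Col6a1 to Col6a2, -0.36 for Col5a1 to Col5a2 and -0.07 for Col3a1 to Col1a1, with exact p from 0.229 to 0.714.

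**Figure D5:**
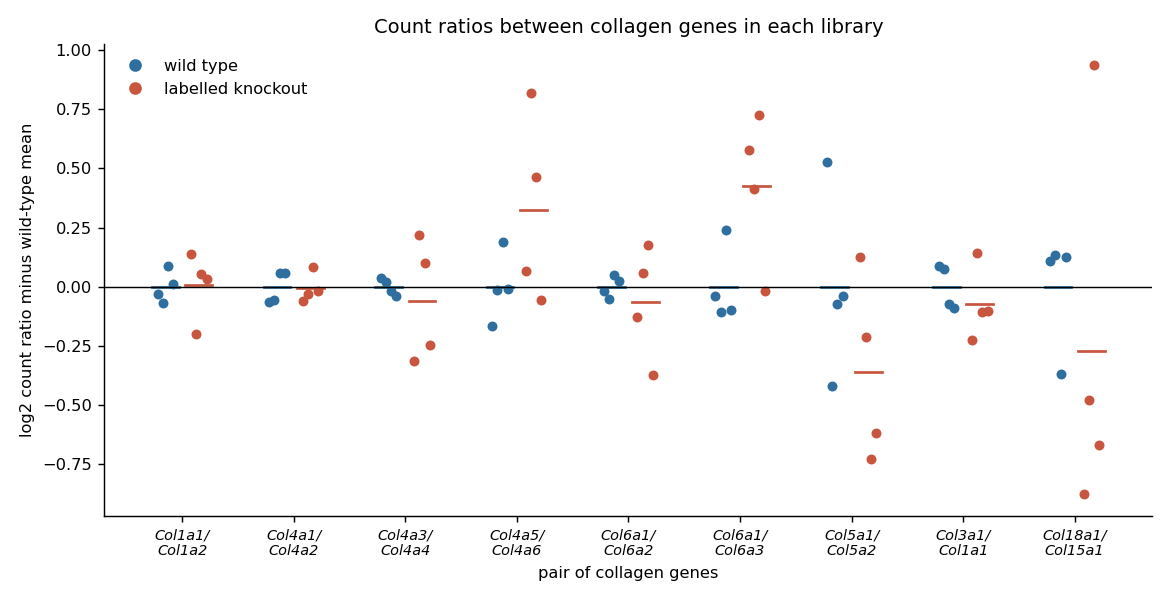
Log2 ratio of raw counts for 9 pairs of collagen genes, minus its wild-type mean, with a point for each of the 8 libraries by group and a line for the group mean. Col1a1/Col1a2 and Col4a1/Col4a2 have the smallest differences between group means (0.01 and -0.01), and Col18a1/Col15a1 is spread widest, with labelled knockout 3 highest.

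The genes that make, remodel and bind collagen were read from the same fit, and 0 passed the edgeR test in either direction in each of 5 lists. Of the enzymes and chaperones of collagen synthesis, 29 of 32 were tested, 8 had fitted values above 0 and the median log2 fold change was -0.06. Crtap, part of the complex that hydroxylates proline in new collagen chains, was at 29.3 ± 4.06 CPM in labelled knockouts, against 35.0 ± 0.536 CPM in wild types (SD, n = 4 each), with no overlap of the groups (log2 fold change -0.25, SE 0.11, edgeR unadjusted p = 0.0466). Plod3, a lysyl hydroxylase of collagen, had -0.24 (SE 0.14). Of the proteases and inhibitors of collagen breakdown, 10 of 14 were tested, 5 were above 0 and the median was 0.01. Timp2, a metalloproteinase inhibitor, had 258 ± 46.2 and 299 ± 17.7 CPM (log2 fold change -0.21, SE 0.13), and Mmp15, a membrane-bound metalloproteinase, 1.07 ± 0.320 and 0.915 ± 0.223 CPM (0.22, SE 0.31). Of the collagen receptors, 8 of 9 were tested, 3 were above 0 and the median was -0.06. The integrin chains Itga1 (log2 fold change 0.32, SE 0.19) and Itga2 (0.39, SE 0.28), which bind collagen with integrin beta 1, had the smallest p of that list.

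The laminins, nidogens, perlecan, agrin and Sparc, which share the basement membrane with collagen IV or bind it, were all tested, 16 of 16, with 4 above 0 and a median of -0.04. Lamb3, a laminin beta chain of epithelial basement membranes, had 8.84, 7.04, 7.25 and 8.80 CPM in labelled knockouts 1 to 4, against 14.1, 12.1, 12.5 and 12.7 CPM in wild types 1 to 4. Every labelled knockout was below every wild type, with a log2 fold change of -0.69 (SE 0.14), an adjusted p of 0.402 by edgeR and of 0.00220 by DESeq2, so the call depends on the tool. Nid2, a nidogen that links laminin to collagen IV, had 0.29 (SE 0.18). Of 17 proteoglycans and glycoproteins found on fibrils, all tested, 8 were above 0 and the median was -0.03. Fbln2, a fibulin, had 1.20 ± 0.480 and 1.88 ± 0.125 CPM (log2 fold change -0.64, SE 0.29, edgeR unadjusted p = 0.0483), and Eln, the elastin gene, 9.79 ± 5.41 and 6.62 ± 1.13 CPM (log2 fold change 0.56, SE 0.36).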

How the data were processed

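Total RNA of adult testis was extracted with TRIzol, DNase-treated and made into TruSeq libraries, per the labels' protocols. The values are raw counts per Ensembl gene, deposited by the authors as whole numbers. Trimmomatic, STAR, featureCounts, DESeq2 and build GRCm39 are named in the submitters' processing notes. The sources used here do not give versions or the strand setting. Of the 56748 identifiers, 52073 were matched to a symbol, and 0 columns were left without a sample.

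Genes were filtered with filterByExpr (minimum count 10, minimum total 15), which left 21805, scaled by TMM and compared by edgeR's quasi-likelihood test without covariates (edgeR 4.0.16, limma 3.58.1, R 4.3.3), with Benjamini-Hochberg adjustment over all genes and a threshold of 0.05. The SE was obtained by dividing the absolute log2 fold change by the root of the F statistic. CPM are TMM-scaled per total of the tested genes, the limit for a count of 0 is per total count, and limits cover counting error only. Ratios added 0.5 counts to each gene. Exon lengths, overlaps and promoters come from GENCODE M21 and RefSeq on GRCm38, which is not the build of the counts.

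Values in all 8 libraries are given for Ak9, for collagen genes past the threshold, for the 3 with the smallest p and the 3 with the highest wild-type level per kilobase in each class, and for those whose groups do not overlap at 1 CPM or more. From each pathway list the 2 genes with the smallest p are named. Col1a1, Col6a1, Col6a3, Col13a1, Col18a1 and the other genes given by library, as well as Acta2, Myh11, Actg2, Wt1, the epididymis markers and the library orders, were chosen after their values were seen. The members and lists were chosen with earlier results of these data known. Alternatives were DESeq2 1.42.0, limma-voom using sample quality weights, a replicate block, scaling by RLE, no filter on low counts or a filter on a mean of 1 CPM, and leaving out each library. For ratios they were an offset of 5 counts, a sign-flip test within replicate numbers, and leaving out each library. The scripts were tested on simulated data. No library was a copy of another, with a chi-square per gene of 4.52 or more between libraries of a group.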

Additional observations from a re-analysis of the deposited data

Results flagged for a closer look

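Within the wild types, 1 library stood apart for 1 collagen gene. Col4a6, a collagen IV chain, was at 5.52 CPM in wild type 2 and at 5.20 to 5.24 CPM in the other 3 wild types, so the gap to the nearest library was 0.880 of the whole range. It was the only value found in 84 groups of 4 libraries (1.19%), 42 genes in each of the 2 groups, and chance marks about 1 in 20 such groups.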

How the results depend on the processing

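The number of collagen genes past the adjusted threshold was 0 in each direction under every alternative run. For the chain ratios 0 of 9 passed too, which shows no stability, since the smallest exact p was 0.0571 with a library left out and 0.125 for the sign-flip test. The direction of the fitted fold change held in all alternatives for 28 of the 42 tested genes and turned in at least 1 for 14. Under limma-voom with sample quality weights the log2 fold change was -0.037 for Col11a2, -0.12 for Col6a5, -0.091 for Col7a1, -0.054 for Col14a1 and 0.18 for Col28a1, and the class medians were 0.027 for fibrillar and 0.072 for collagen IV chains. With the replicate block it was -0.028 for Col14a1 and 0.043 for Col28a1. The replicate block left the collagen calls at 0 and the calls over all genes at 4. Same-numbered libraries of the 2 groups had deviations correlated at 0.13, 0.05, -0.05 and 0.04, so the numbers were not shown to pair them. Without any 1 library the log2 fold change ran over these ranges: Col5a1 -0.13 to 0.040, Col5a3 -0.47 to 0.35, Col11a2 -0.19 to 0.53, Col4a3 -0.029 to 0.32, Col6a5 -0.072 to 0.17, Col7a1 -0.17 to 0.19, Col8a2 -0.31 to 0.11, Col9a1 -0.0076 to 0.21, Col12a1 -0.30 to 0.019, Col13a1 -0.87 to 0.0080, Col14a1 -0.23 to 0.12, Col15a1 -0.098 to 0.13, Col18a1 -0.51 to 0.12 and Col28a1 -0.26 to 0.15. The difference in log2 ratio ran from -0.037 to 0.076 for Col1a1/Col1a2, from -0.036 to 0.014 for Col4a1/Col4a2, from -0.15 to 0.024 for Col4a3/Col4a4 and from -0.15 to 0.036 for Col6a1/Col6a2. Col13a1 was not tested with the filter on a mean of 1 CPM, which it misses. Over all genes, calls higher and lower were 23 and 23 by DESeq2, 9 and 5 by limma-voom, 16 and 10 with no low-count filter, 9 and 24 without labelled knockout 1, 23 and 12 without labelled knockout 3 and 14 and 19 without labelled knockout 4, against 4 and 0. The cause of these shifts was not tested. With 4 libraries a group the SE of a collagen log2 fold change was 0.11 to 0.54, and differences of that size cannot be shown at this spread. Differences larger than their SE could be missed too, as Col8a1, at 0.76 with an SE of 0.22, did not pass.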
